A study of Homo sapiens with 19 samples.

Results

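The pellet of a 100000 xg spin of culture medium, called P100, was compared with lysate of the Caco-2 cells that had conditioned the medium. Members were chosen by their titles, which gave 4 P100 and 3 cell lysate libraries, 7 of the 19 in the series. Caco-2 is an established human colorectal epithelial line, labelled wild type here, and both groups came from cells grown in medium with 20% fetal bovine serum (FBS). At 80% confluence the cells were moved to medium free of FBS and antibiotics for 24 h. The medium was cleared of debris and spun at 40000 xg, and P100 is what sedimented from that supernatant at 100000 xg. RNA of P100 and of the cells was taken up in Trizol without a precipitation step. The RealSeq-AC small RNA kit was used, with single-end reads of 50 bases. The pellet is defined by speed alone, so no marker of a vesicle or particle class stands behind its name, and all libraries come from 1 cell line. Nothing in the labels ties a replicate to its own culture, and a p-value then covers only the spread among these libraries, which may be technical. The other groups (total extracellular RNA, the 40000 xg pellet P40, and the supernatant S100 left after both spins) entered through the shared estimate of spread, and P40 also in a comparison of the pellets at the end.

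MicroRNAs are RNAs of about the length of a short primer that are cut from hairpins by Drosha and Dicer and loaded into Argonaute proteins. The bases at positions 2 to 8, the seed, pair with target messages and lower their translation or stability. Cells release small RNA in vesicles and in protein complexes, and a high-speed pellet collects small vesicles and large complexes, ribosomal ones among them. miRBase numbers rise with the date of entry, and a number of late entries lie in or copy ribosomal, mitochondrial, transfer or small nuclear RNA, so that counts given to them can come from those RNAs.

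The sequences below are RefSeq mature miRNAs (GRCh38.p14), written 5′ to 3′ with the seed in capitals. The first set is shown because these miRNAs were far more abundant in P100 and lie in or match other RNA classes or are very rich in G and C.
miR-10396a-5p: gGCGGGGCucggagccggg
miR-10396b-5p: cGGCGGGGcucggagccggg
miR-663a: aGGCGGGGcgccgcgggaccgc
miR-663b: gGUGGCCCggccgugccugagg
miR-7704: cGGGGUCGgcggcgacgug
miR-4466: gGGUGCGGgccggcgggg
miR-4485-3p: uAACGGCCgcgguacccuaa
miR-12136: gAAAAAGUcauggaggcc
miR-1246: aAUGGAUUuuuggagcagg
miR-3651: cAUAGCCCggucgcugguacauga

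The next set holds miRNAs that were lower in P100, with miR-23a-3p beside miR-23b-3p because these differ by 1 base (U19A, miR-23a-3p first, counted from the 5′ end) and by 2 bases of length, and behaved differently. miR-103a-3p and miR-107 also differ by 1 base (G22C).
miR-103a-3p: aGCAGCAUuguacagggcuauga
miR-107: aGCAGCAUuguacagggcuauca
miR-23b-3p: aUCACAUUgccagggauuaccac
miR-23a-3p: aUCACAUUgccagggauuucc
miR-378a-3p: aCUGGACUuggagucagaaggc
miR-200c-3p: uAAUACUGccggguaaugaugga
miR-194-3p: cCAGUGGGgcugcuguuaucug
miR-4454: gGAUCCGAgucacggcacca

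Lysate libraries held 37453 to 157051 miRNA counts (n = 3) and P100 libraries 10017 to 27027 (n = 4). A count of 3 was worth 19.1 to 80.1 CPM (counts scaled to a common total) in lysate and 111 to 299 CPM in P100, so low miRNAs were measured less well in P100. Without molecular identifiers, such floors and the counting intervals below cover counting error only. In these 7 libraries 638 miRNAs were listed, 370 in both groups, 176 in lysate only and 92 in P100 only. All levels below are CPM after trimmed mean of M values (TMM) scaling, given in the order of the replicate numbers. They are shares of the counted miRNAs. Fewer copies of a miRNA and more of the others cannot be told apart. Lysate replicate 1 stood apart from its group, with a mean Spearman correlation of 0.869 to the other lysate libraries against 0.919 and 0.905, and values without it are given where they move a result. Log2 fold changes are P100 minus lysate and are given ± their standard error (SE).

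Of 227 miRNAs tested, 38 were higher in P100 (16.7%) and 47 lower (20.7%) by edgeR's quasi-likelihood test at an adjusted p below 0.05, 37.4% in all. By fitted value the rises were the larger: 31 of 38 were at least 4-fold, against 21 of 47 falls. The median log2 fold change was 3.63 among the higher and -1.81 among the lower, beside -0.10 over all tested. Of the higher miRNAs 8 had no lysate count, and their fitted values are no bounds, while no lower miRNA was at 0 in every P100 library. The higher floor of P100 also limits how large a fall could be measured. Libraries of the groups did not overlap for 35 of the higher and 42 of the lower miRNAs, where over all tested this held for 18.5% in the higher and 22.9% in the lower direction, 41.4% in all. In the 3 batch numbers that both groups share, 37 and 46 kept their sign in each. Without lysate replicate 1 the counts were 39 and 37. Of 34 with a mean of at least 5000 CPM, 4 were higher, 10 lower and 20 were not called.

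**Figure D1:**
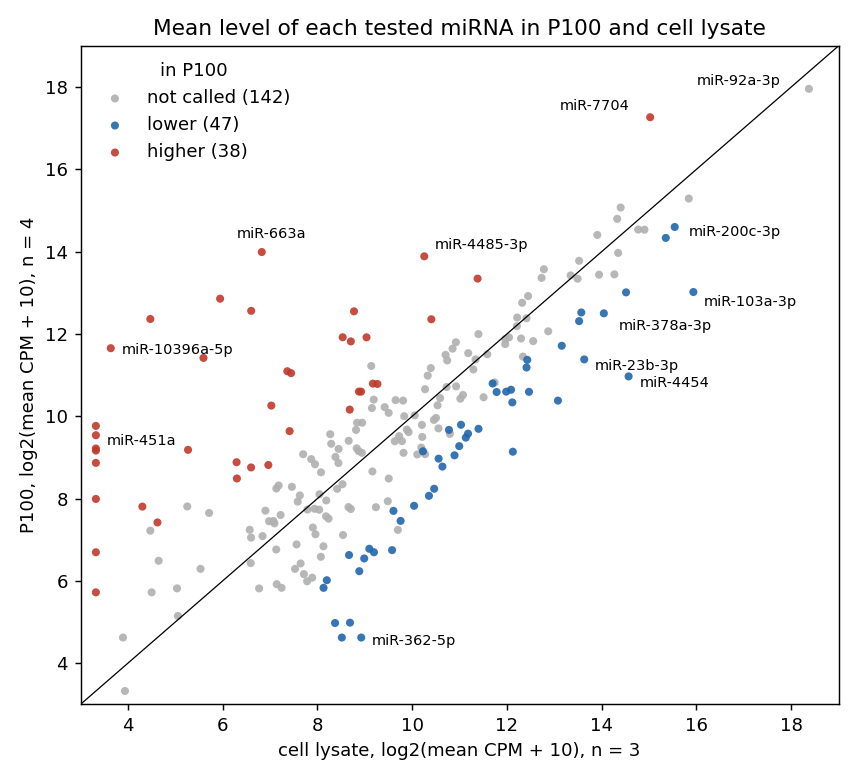
Mean level of each tested miRNA in cell lysate (horizontal axis, 3 libraries) and P100 (vertical axis, 4 libraries), as log2 of the mean CPM plus 10; red points were higher, blue points lower in P100 and grey points not called, and the line marks equal levels. The 38 higher miRNAs lie above the line, 31 of them at least 4-fold by the fitted value. The 47 lower ones, miR-103a-3p and miR-200c-3p among them, lie below it, 21 of them at least 4-fold by that value.

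Among the largest rises were miRNAs whose hairpins lie in or copy ribosomal RNA (rRNA) precursors, the transcripts that are cut into the RNA of ribosomes. Of 9 tested members of this list 8 were higher and none lower, beside 16.7% and 20.7% over all tested. The median log2 fold change of the 9 was 6.67 (6.32 with the member absent from lysate set at its bound). The list took 0.0828, 0.0637 and 0.0364% of the counts in lysate and 2.85, 3.98, 3.06 and 5.90% in P100. Every P100 library lay far above every lysate library.

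miR-663a (chr20:26208243-26208264, in an intron of the noncoding MIR663AHG) was at 34.5, 212 and 63.6 CPM in lysate and at 9173, 13090.3, 12754 and 30052 CPM in P100. Its log2 fold change was 7.01 ± 1.02 (edgeR adjusted p = 1.64e-05), and 8.23 without lysate replicate 2. P100 replicate 4, the shallowest library, was the highest by a wide margin, and the groups did not overlap. Its relative miR-663b (chr2:132256970-132256991, in no GENCODE host transcript on its strand) had no count in 260500 lysate counts, against 467, 765, 605 and 1603 CPM in P100. Taking 3 counts over the lysate group as the floor, it was at least 57.9-fold higher.

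The 2 miR-10396 hairpins lie in the rRNA gene region of chromosome 21, miR-10396b within RNA45SN1, which encodes the 45S rRNA precursor. miR-10396a-5p (chr21:8987617-8987635) was at 0, 7.31 and 0 CPM in lysate and 2162, 2975, 3502 and 4207 CPM in P100. That is 1 count against 230, a ratio of 713 with an exact 95% counting interval of 127 to 28295 (edgeR adjusted p = 5.68e-10, fitted value 10.55 without lysate replicate 2, which held that count). miR-10396b-5p (chr21:8436324-8436343) holds the same bases with 1 more at the 5′ end, as the sequences above show, so reads can move between them. It was at 138, 43.8 and 79.5 CPM in lysate and 5434, 7310.2, 6787 and 4608 CPM in P100, a log2 fold change of 6.32 ± 0.51 (edgeR adjusted p = 1.19e-09). The opposite arms rose likewise. miR-10396a-3p had a log2 fold change of 7.93 ± 0.75 (edgeR adjusted p = 1.88e-08), on 5 lysate counts, all in lysate replicate 2. Without that library no lysate count was left, and the fitted value of 11.26 is no bound. For miR-10396b-3p the value was 6.67 ± 0.75 (edgeR adjusted p = 5.19e-07), and 9.22 without the same library, which held 19 of its 20 lysate counts.

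miR-3648, from the leading spacer of the rRNA precursor, rose from 103, 146 and 111 CPM to 1636, 468, 1254 and 1503 CPM (log2 fold change 3.25 ± 0.60, edgeR adjusted p = 0.000192). miR-10401-5p was higher by 4.04 on the log2 scale on 7 lysate counts, by 5.01 without lysate replicate 3, and lost its call at equal depth (edgeR adjusted p = 0.0767). Of this list the member not called, miR-10401-3p, had a log2 fold change of 2.61.

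**Figure D2:**
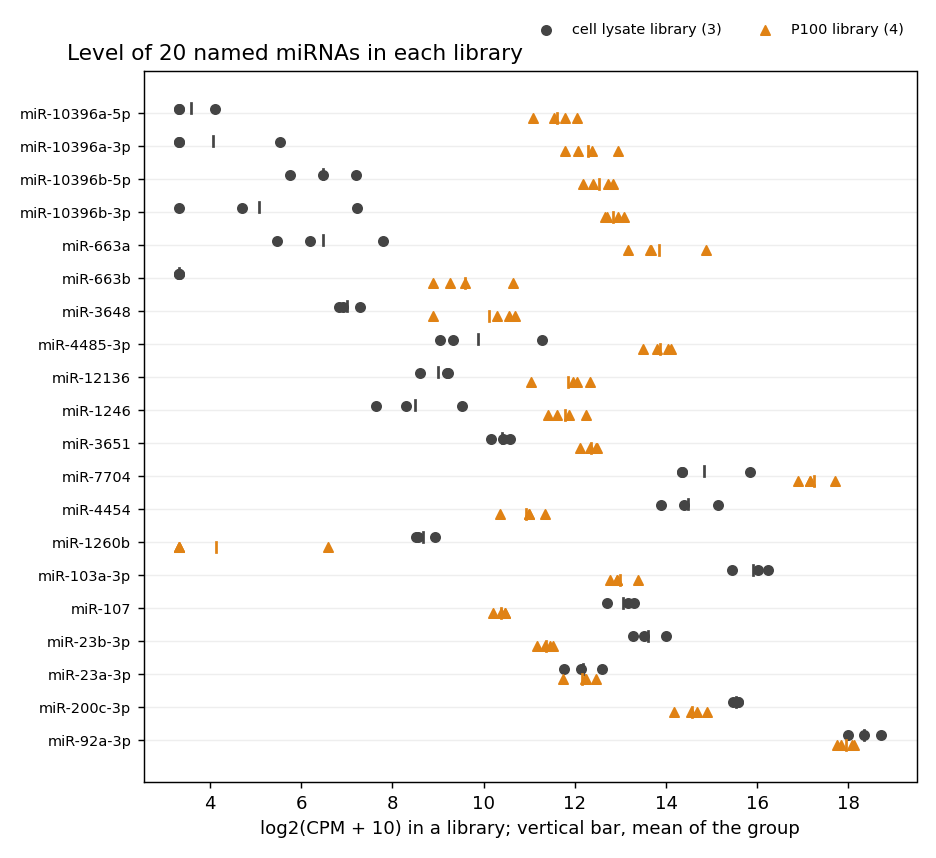
Level of 20 named miRNAs as log2 of CPM plus 10, one circle per cell lysate library (3) and one triangle per P100 library (4), with a vertical bar at each group mean. For the rRNA, mitochondrial and small nuclear entries and for miR-7704 all triangles lie to the right of all circles, for miR-4454, miR-1260b, miR-103a-3p, miR-107, miR-23b-3p and miR-200c-3p all lie to the left, and for miR-23a-3p and miR-92a-3p they overlap.

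Both tested entries with mitochondrial sequence were higher. miR-4485-3p (chr11:10508277-10508296, in an untranslated exon of MTRNR2L8) matches, over its whole length, the mitochondrial 16S rRNA gene MT-RNR2. It was at 2481, 519 and 636 CPM in lysate and 17762, 14280.3, 16861 and 11620.2 CPM in P100, with a log2 fold change of 3.70 ± 0.63 (edgeR adjusted p = 0.000102), and 4.85 without lysate replicate 1. That library was the highest of the lysate group, yet below every P100 library. miR-12136, whose sequence is found whole in MT-TS1, a mitochondrial serine transfer RNA (tRNA), rose from 379, 577 and 589 CPM to 5142, 3953, 4237 and 2104 CPM (2.89 ± 0.58, edgeR adjusted p = 0.000407). Together they took 0.222, 0.0955 and 0.120% of lysate counts and 2.19, 1.86, 1.84 and 1.39% of P100 counts.

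Entries of nuclear small RNA were also higher, both tested ones. miR-1246, found whole in RNU2-1, the U2 RNA of the spliceosome, was at 724, 307 and 191 CPM in lysate and 3739, 2720.1, 4842 and 3105 CPM in P100. Its log2 fold change was 3.24 ± 0.46 (edgeR adjusted p = 7.73e-06), and 3.96 without lysate replicate 1. miR-3651 lies inside SNORA84, a small nucleolar RNA that guides pseudouridine formation, in an intron of the gene of isoleucyl-tRNA synthetase (chr9:92292461-92292484). It rose from 1516, 1374 and 1145 CPM to 4441, 5185, 5707 and 5609.7 CPM (1.96 ± 0.37, edgeR adjusted p = 0.000243).

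Both tested members of the list of entries resembling nuclear tRNA went the other way. miR-5100, which is not in this list, was called higher and is given with the late entries below. miR-4454 (chr4:163093607-163093626, in no GENCODE host transcript) was at 36145, 21563 and 15159 CPM in lysate and 2045, 2593, 2032 and 1302 CPM in P100, lower by a log2 fold change of -3.59 ± 0.57 (edgeR adjusted p = 4.54e-05). miR-1260b fell from 482, 358 and 366 CPM to 0, 0, 86.5 and 0 CPM, that is from 86 counts to 2, all in P100 replicate 3. The ratio of P100 to lysate was 0.0721 (exact 95% counting interval 0.00860 to 0.269, edgeR adjusted p = 0.00170). Without that library P100 held no count, and the fitted value of -7.81 is no bound. The tRNA-like list fell from 2.84, 1.91 and 1.48% of counts to 0.194, 0.262, 0.181 and 0.130%. All other RNA classes together held 15 tested members, 12 higher and 2 lower, beside 16.7% and 20.7% over all tested. They rose from 2.45% ± 0.809 (SD, n = 3) of counts to 6.82% ± 1.10 (n = 4). These lists were drawn up with earlier results of the same libraries known, so their direction is no independent evidence.

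miR-7704 was the second most abundant miRNA of P100. It lies in a coding exon of HOXD1, a homeobox gene of body patterning, at chr2:176188843-176188861 on the same strand, and is short and rich in G. It took 4.52, 1.81 and 1.98% of lysate counts and 11.6, 14.8, 18.4 and 14.7% of P100 counts. On the CPM scale its log2 fold change was 2.24 ± 0.51 (edgeR adjusted p = 0.00190), and 3.06 without lysate replicate 1. The lowest P100 library was above the highest lysate library.

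Other late entries behaved in the same direction. Of 28 tested miRNAs with a miRBase number of 3000 or above 21 were higher (75.0%) and 2 lower, miR-4454 and miR-10395-3p. Among 199 with lower numbers 17 were higher (8.54%) and 45 lower (22.6%). Of 194 late entries listed in these 7 libraries only 28 were tested. The filter on low counts used all 5 groups, so an entry without a lysate count could be tested only through the other groups. The shares of late entries called thus depend in part on the filter. The late entries took 9.18, 4.55 and 4.16% of lysate counts and 19.3, 23.1, 26.2 and 22.7% of P100 counts. Leaving out those in the lists of other RNA classes, 12 of 17 were higher and 1 was lower. miR-4466 and miR-3960, without a lysate count, were at least 45.5-fold and 36.2-fold higher, at 526, 595, 735 and 401 CPM and 584, 553, 389 and 301 CPM. Smaller bounds held for miR-4690-5p (7.24-fold, 7 P100 counts) and miR-5100 (4.14-fold, 4 counts). The call of miR-5100, which had counts in 2 of 4 P100 libraries, was lost in 6 of 15 alternative settings: at equal depth, with the replicate block (edgeR adjusted p = 0.0541), and without lysate replicate 2 or 3 or P100 replicate 2 or 3 (0.123, 0.0578, 0.245 and 0.0542). miR-4516 had a log2 fold change of 2.01 ± 0.68 (edgeR adjusted p = 0.0251), which was 3.81 without lysate replicate 1, while its call was lost without lysate replicate 2 (edgeR adjusted p = 0.0993), lysate replicate 3 (0.0892) or P100 replicate 3 (0.0537).

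The P100 set was rich in G and C at its extreme end. RefSeq sequences were matched for 199 of the tested miRNAs, 31 of the 38 higher and 44 of the 47 lower. Of 15 with at least 80% G and C, 12 were higher and none lower, beside 15.6% higher and 22.1% lower among the 199. Between 60 and 70% only 2 of 24 were higher and 7 lower, and between 70 and 80% 2 of 8 were higher and 3 lower. Pearson's correlation of G and C content with log2 fold change was 0.433 across all 199, 0.370 across the 20 numbered 3000 or above and 0.0462 across the 179 with lower numbers. Spearman's rank correlation was 0.122, 0.431 and -0.116 in the same order, so by rank there was little trend across all 199. These points share libraries and base composition, so the correlations are a description. Weighted by counts, G and C made up 51.2 to 54.4% of miRNA bases in lysate and 57.8 to 60.0% in P100, without overlap. The part of base composition in the result was not tested.

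**Figure D3:**
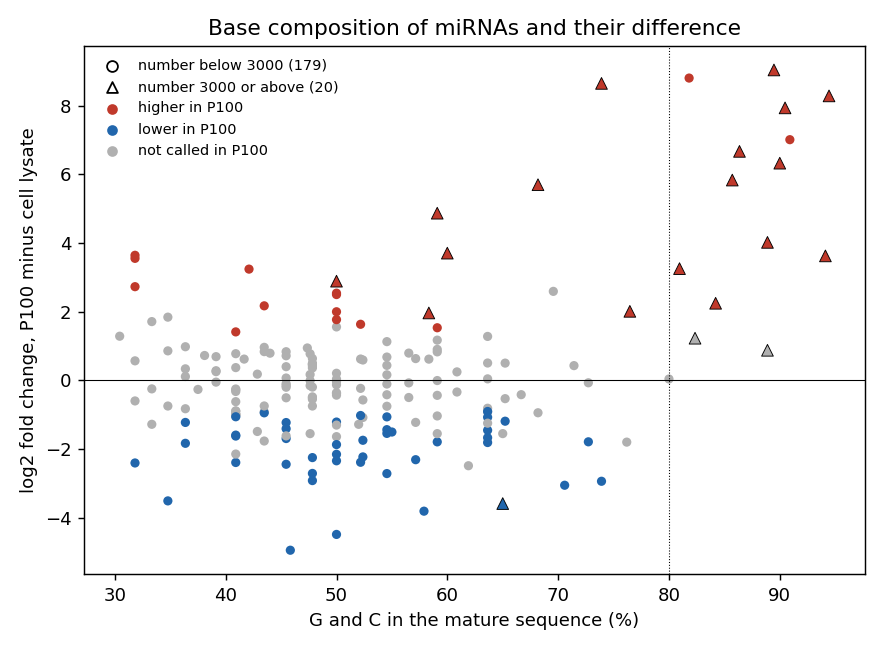
G and C content of 199 miRNAs with a RefSeq sequence (horizontal axis, percent) against their log2 fold change, P100 minus cell lysate (vertical axis); circles have a miRBase number below 3000 and triangles one of 3000 or above, coloured by call, with fitted values for miRNAs absent from lysate. To the right of the dotted line at 80%, 12 of 15 points are higher in P100 and none lower, while the medians of the classes to its left run from 0.27 (under 40%) to -0.93 (70 to 80%).

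A pair of sequence motifs was counted on the mature strand, both described in earlier work in connection with export or retention of miRNAs. GGAG was in 16.1% of the higher, 11.4% of the lower and 10.1% of all 199 tested sequences, beside 15.7% of the 2370 mature sequences in RefSeq. CCCU was in 22.6% of the higher, in none of 44 lower and in 10.1% of the tested ones, beside 11.9% in RefSeq. Of the 7 higher sequences with CCCU, miR-365a-3p and miR-365b-3p are identical and miR-10396a-3p and miR-10396b-3p near-identical. Of the 5 with GGAG, miR-10396b-5p holds all of miR-10396a-5p. Such pairs can share reads but were counted as separate sequences. A match says only that the letters are there.

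Calls were counted by the place of the hairpin for 199 tested miRNAs with a locus, of which 15.6% were higher and 22.1% lower. Among 9 tested miRNAs in an exon of a protein-coding gene on the same strand, 3 were higher, miR-4485-3p and miR-7704 among them, and none lower. In introns of protein-coding genes 6 of 80 were higher (7.50%) and 21 lower (26.3%). Of 49 in no GENCODE host transcript on their strand 14 were higher (28.6%) and 8 lower. Small RNA and rRNA genes were not counted as hosts, and both arms of miR-10396b, within RNA45SN1 in RefSeq, are in this class. Those 14 were mostly entries numbered 3000 or above.

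Among miRNAs numbered below 3000, rises were fewer. The pair miR-365a-3p and miR-365b-3p, which act in brown fat and epithelial differentiation and have identical mature sequences, was among the larger ones. miR-619-5p, without a lysate count, was at least 14.5-fold higher on 14 P100 counts. miR-365a-3p was at 34.5, 270.4 and 159 CPM in lysate and 1694, 1913, 2291 and 2805 CPM in P100 (3.64 ± 1.15, edgeR adjusted p = 0.0177). miR-365b-3p had nearly the same values (3.55 ± 1.13, edgeR adjusted p = 0.0182), and since their reads cannot be told apart the pair counts as 1 observation. miR-193b-3p, encoded beside miR-365a on chromosome 16, was higher too, at 586, 738 and 493 CPM against 1987, 2168, 1556 and 1302 CPM (1.53 ± 0.42, edgeR adjusted p = 0.00638). This was 1 of 3 genomic clusters, defined by hairpins within 10000 bases, whose calls were all upward, while in 16 of 32 all calls were downward and 12 had none. Most of these clusters also held members that were not called. A miRNA with several hairpins, such as let-7a-5p or miR-194-5p, was counted in each of its clusters, and the miR-941 cluster holds 1 miRNA. The clusters are thus not separate observations.

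miR-125b-5p and miR-100-5p, both linked to drug resistance of colorectal tumours, were scarce in the cells. Both have a hairpin in the noncoding MIR100HG on chromosome 11, and miR-125b-5p has another on chromosome 21. miR-125b-5p was at 0, 109.6 and 95.4 CPM in lysate and 234, 638, 476 and 501 CPM in P100 (2.50 ± 0.65, edgeR adjusted p = 0.00432). For miR-100-5p the values were 138, 36.5 and 31.8 CPM and 467, 340.0, 86.5 and 501 CPM (2.54 ± 0.72, edgeR adjusted p = 0.00794), with P100 replicate 3 inside the lysate range. It was higher by 3.32 without lysate replicate 1, and its call was lost at equal depth (edgeR adjusted p = 0.0616) and when it was summed with miR-99a-5p, which differs by 1 base, A16U (0.0778). The other 5 tested members of this family were not called, miR-99b-5p with 0.04 and miR-125a-5p with -0.13 on the log2 scale. let-7a-5p, one of whose hairpins lies beside miR-100, was lower, which made this the single cluster with calls in both directions.

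All 4 tested members of the miR-320 family, whose first-named hairpin is made without Drosha, had positive log2 fold changes. Called higher were 2, beside 16.7% over all tested. miR-320b was at 620.2, 409 and 350.0 CPM in lysate and 1694, 1743, 1124 and 1603 CPM in P100 (1.77 ± 0.47, edgeR adjusted p = 0.00503). miR-320c had 2.00 ± 0.56 (edgeR adjusted p = 0.00767) on 24 and 34 counts, with its call lost at equal depth (edgeR adjusted p = 0.165) and without P100 replicate 2 (0.0528). The abundant miR-320a-3p was at 21846, 21841 and 21172 CPM and 34239, 38378, 34413 and 30753 CPM. Its groups did not overlap, but the difference of 0.67 ± 0.35 (edgeR adjusted p = 0.140) did not pass. In a fit of only the 7 libraries it did (edgeR adjusted p = 0.00659), as it did at equal depth (0.0410). It also passed with near-identical miRNAs summed (edgeR adjusted p = 0.0486), without entries of other RNA classes (0.0269) and by DESeq2 (DESeq2 adjusted p = 0.0416). The family took 1.75, 1.95 and 2.07% of lysate and 3.44, 4.14, 3.08 and 3.27% of P100 counts.

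Smaller rises of single miRNAs included miR-146a-5p, a brake on NF-kB signalling, at 172, 504 and 525 CPM in lysate and 876, 893, 1167 and 1603 CPM in P100 (1.41 ± 0.49, edgeR adjusted p = 0.0256). Its call was lost in 6 of 17 alternatives, 3 of them single libraries left out: lysate replicate 1, P100 replicate 3 and P100 replicate 4 (edgeR adjusted p = 0.0593, 0.0509 and 0.0654). miR-30c-5p was higher by 2.17 ± 0.74 (edgeR adjusted p = 0.0239) on 21 and 28 counts, and lost its call without lysate replicate 3, P100 replicate 2 or P100 replicate 4 (edgeR adjusted p = 0.0628, 0.0579 and 0.0754). miR-9-3p, a neural miRNA, rested on 6 and 12 counts (2.73 ± 1.00, edgeR adjusted p = 0.0341), with all lysate counts in replicate 2, without which the fitted value was 6.27. It had no call without lysate replicate 1 or 3 or P100 replicate 2, 3 or 4 (edgeR adjusted p = 0.0504, 0.0840, 0.0931, 0.0707 and 0.0628).

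Of 12 miRNAs in a list of blood cells 3 were tested. Of these 2 were higher and none lower, beside 16.7% and 20.7% over all tested. miR-451a, the red cell miRNA that Argonaute 2 cuts without Dicer, had no count in lysate and 935, 468, 735 and 200.3 CPM in P100, at least 47.6-fold higher. miR-486-5p, also of red cells and found in other tissues, rose from 517, 446 and 461 CPM to 1811, 1658, 1686 and 1002 CPM (1.72 ± 0.51, edgeR adjusted p = 0.0109). Of 7 blood cell markers 4 were listed in lysate and 5 in P100, with summed levels of 461 to 517 CPM and 1402 to 2980 CPM. miR-451a, miR-223-3p and miR-144-3p were at 0 in lysate, and miR-142-3p and miR-142-5p, both of white cells, at 0 in P100. Both had a mean of only 2.44 CPM in lysate, a level below the P100 floor. miR-150-5p and miR-223-3p, also of white cells, had higher means in P100. They were at 169 CPM in P100 against 2.44 CPM in lysate and at 10.8 against 0 CPM, low levels for the depth of P100. The cells had been grown with FBS before the 24 h without it. The part of serum in these values was not tested. Markers of mesenchyme, muscle and endothelium were listed for 5 of 8 in lysate and 6 of 8 in P100, with sums of 345 to 950 CPM and 993 to 2465 CPM, and miR-199a-3p and miR-206 at 0 in both groups. The liver miRNA miR-122-5p was at 168 to 604 CPM and 259 to 601 CPM, and did not pass (0.40 on the log2 scale). All 8 epithelial markers were listed in both groups, with sums of 55648 to 63791 CPM in lysate and 29368 to 43876 CPM in P100. miR-200c-3p made up most of these sums, with means of 47722 CPM in lysate and 24817 CPM in P100. The means of miR-200b-3p, miR-429, miR-192-5p and miR-215-5p were higher in P100, none of them called. Those of miR-200a-3p, miR-141-3p and miR-194-5p were lower.

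The clearest falls of established miRNAs were of miR-103a-3p and miR-107, which lie in introns of the pantothenate kinase genes PANK3, PANK2 and PANK1 and act on insulin sensitivity. miR-103a-3p (chr5:168560904-168560926 and chr20:3917541-3917563) was at 66467, 44807 and 76798 CPM in lysate and 10634, 7735, 7782 and 7012 CPM in P100, a log2 fold change of -2.92 ± 0.35 (edgeR adjusted p = 8.69e-07). miR-107 (chr10:89592756-89592778) fell from 10027, 6686 and 9178 CPM to 1402, 1318, 1167 and 1402 CPM (-2.71 ± 0.35, edgeR adjusted p = 1.90e-06). In both cases the lowest lysate library was several times above the highest P100 library. miR-15b-5p, whose seed is shifted by 1 base, was lower with -2.39 ± 0.74 (edgeR adjusted p = 0.0138), but had -1.39 and no call when lysate replicate 1 was left out (edgeR adjusted p = 0.140). Its relative miR-16-5p, at 6616, 11713 and 12869 CPM and 7654, 9945, 9554 and 16729 CPM, did not pass (0.07 ± 0.29).

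miR-23b-3p, from the chromosome 9 cluster with miR-27b and miR-24 (chr9:95085265-95085287, an intron of the aminopeptidase gene AOPEP), was at 16470.4, 9901 and 11676 CPM in lysate and 2921, 2593, 2810.1 and 2304 CPM in P100 (-2.25 ± 0.30, edgeR adjusted p = 3.51e-06). miR-23a-3p of chromosome 19 (chr19:13836595-13836615) shares its seed and was at 6202, 3478 and 4502 CPM and 4791, 5610.1, 4842 and 3406 CPM (-0.01 ± 0.32, edgeR adjusted p = 0.987). The ratio of miR-23a-3p to miR-23b-3p counts was 0.377, 0.351 and 0.386 in the lysate libraries and 1.64, 2.16, 1.72 and 1.48 in the P100 libraries. The order of the 2 was thus turned in every P100 library. Summed with each other, as reads that could have been exchanged, they were lower in P100 (-1.02 on the log2 scale, edgeR adjusted p = 0.00841). The ratio of miR-103a-3p to miR-107 was 6.63, 6.70 and 8.37 in lysate and 7.58, 5.87, 6.67 and 5.00 in P100, which overlap. For miR-27a-3p to miR-27b-3p it was 0.357, 0.255 and 0.271 and 0.500, 0.718, 0.354 and 0.474, also overlapping. These ratios were chosen after the values were seen and carry no test.

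**Figure D4:**
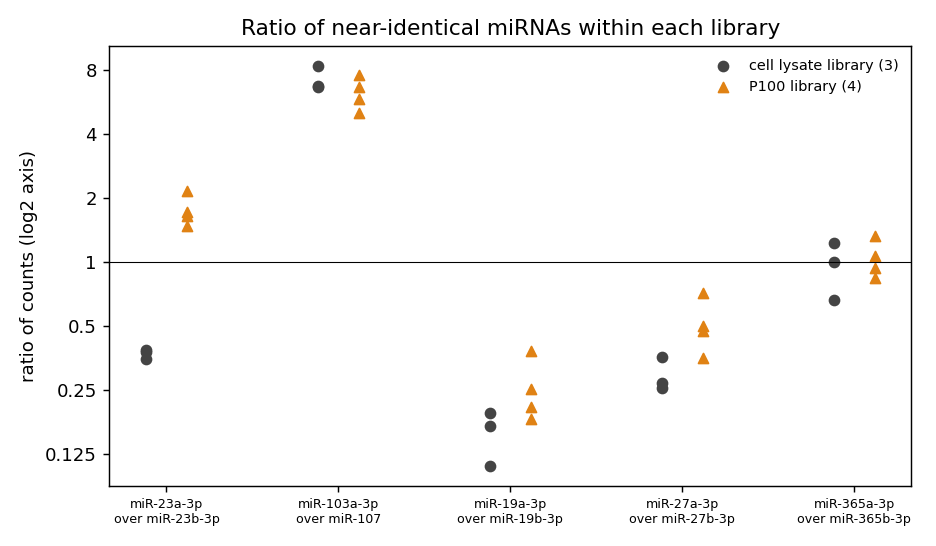
Ratio of the counts of near-identical miRNAs within each library (vertical axis, log2 scale), with circles for the 3 cell lysate and triangles for the 4 P100 libraries; the line marks equal counts. The ratio of miR-23a-3p to miR-23b-3p lies below 1 in all lysate and above 1 in all P100 libraries, while the ratios of miR-103a-3p to miR-107, of miR-19a-3p to miR-19b-3p, of the miR-27 pair and of the identical miR-365 pair overlap between groups.

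miR-378a-3p, which lies in an intron of the coactivator gene PPARGC1B (chr5:149732867-149732888) and acts on mitochondrial metabolism, was at 18434, 14855 and 17418 CPM in lysate and 5843, 5610.1, 6485 and 5209 CPM in P100 (-1.54 ± 0.25, edgeR adjusted p = 4.54e-05). Its minor arm did not follow: per 100 miR-378a-3p counts the other arm had 0.561, 4.03 and 1.19 counts in lysate and 7.00, 12.9, 4.67 and 21.2 in P100. Both arms of miR-28 were lower, miR-28-3p with -1.87 ± 0.36 (edgeR adjusted p = 0.000278) and miR-28-5p with -1.09 ± 0.39 (edgeR adjusted p = 0.0302). Over 35 hairpins with both arms tested, the less abundant arm was higher in 3 and lower in 8, the more abundant one higher in 3 and lower in 8, and the median difference between arms was 0.10 on the log2 scale. Over all tested miRNAs 16.7% were higher and 20.7% lower. The ratio of arms lay wholly above the lysate range in P100 for 6 hairpins and wholly below it for 3.

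One of the 3 was miR-192, a miRNA of gut epithelium. Its minor arm miR-192-3p (chr11:64891159-64891180) fell from 65 counts to 1, a ratio of 0.0477 (exact 95% counting interval 0.00119 to 0.275, edgeR adjusted p = 0.00651). Without P100 replicate 1, which held that count, the fitted value was -7.61. The major arm miR-192-5p was at 1998, 8279 and 3961 CPM and 4207, 5228, 6009 and 6111 CPM (0.17 ± 0.40, not called). Both arms of miR-194, encoded next to it and induced with it in the differentiating gut, were lower. miR-194-3p was at 3549, 5166 and 4549 CPM and 1694, 978, 1254 and 1202 CPM (-1.79 ± 0.39, edgeR adjusted p = 0.000927). For miR-194-5p the fall was -1.69 ± 0.47 (edgeR adjusted p = 0.00701), without a call when lysate replicate 1 was left out (edgeR adjusted p = 0.0618) and at equal depth (0.0524).

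miR-200c-3p, which holds cells in the epithelial state by repressing ZEB1 and ZEB2, was the most abundant gut epithelial miRNA. It fell from 48549.8, 49074 and 45541 CPM to 23897, 18530.4, 26285 and 30553 CPM (-0.94 ± 0.24, edgeR adjusted p = 0.00418) without overlap. With a minimum fold of 1.5 its adjusted p was 0.0674, and without the filter on low counts 0.0754. miR-200b-3p and miR-429 share its seed and were not called (0.34 and 0.98 on the log2 scale). miR-200a-5p was lower (-2.71 ± 0.89, edgeR adjusted p = 0.0196) on 94 and 5 counts, had -3.65 without P100 replicate 1, and lost its call without lysate replicate 3, P100 replicate 2 or P100 replicate 3 (edgeR adjusted p = 0.0687, 0.0602 and 0.0560). Of 13 tested gut epithelial miRNAs none was higher and 5 were lower, with a median of -0.32, beside 20.7% lower and a median of -0.10 over all tested. Their count was 3 in a fit of only the 7 libraries and 2 at equal depth. The list took 5.12, 6.59 and 6.57% of lysate counts and 4.12, 3.70, 4.07 and 5.22% of P100 counts, which overlap through lysate replicate 1 and P100 replicate 4.

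Of the let-7 family, which restrains growth and keeps differentiated cells from LIN28-driven states, 4 of 9 members were lower and none higher, with a median of -0.99, beside 20.7% lower and a median of -0.10 over all tested. let-7a-5p was at 6788, 17734 and 10785 CPM and 5375, 3145, 5361 and 6411 CPM (-1.22 ± 0.40, edgeR adjusted p = 0.0196), and let-7b-5p at 3859, 5151 and 3118 CPM and 2279, 935, 1340.2 and 1603 CPM (-1.41 ± 0.33, edgeR adjusted p = 0.00182). let-7i-5p and miR-98-5p had -1.62 and -2.40, with overlapping libraries. These calls were not stable. Leaving out lysate replicate 2 ended those of let-7a-5p, let-7i-5p and miR-98-5p (edgeR adjusted p = 0.193, 0.171 and 0.139), as did leaving out lysate replicate 3 (0.0568, 0.0754 and 0.109) or P100 replicate 2 (0.0641, 0.0617 and 0.0740). Without P100 replicate 1 let-7i-5p and miR-98-5p were not called (0.0683 and 0.0513), nor was miR-98-5p without P100 replicate 4 (0.0640) or with the replicate block (0.0554). The family thus had 1 lower member without lysate replicate 2, lysate replicate 3 or P100 replicate 2, and 2 without P100 replicate 1. let-7b-5p kept its call in every fit without 1 library and lost it when near-identical miRNAs were summed (0.0876).

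The stem cell cluster of miR-371 to miR-373 on chromosome 19, abundant in these libraries, had 1 lower and no higher member among 5 tested, a share near the 20.7% lower over all tested. miR-371a-5p (chr19:53787680-53787699) was at 23258, 26780.4 and 20138 CPM and 9874, 8670.2, 7609 and 6812 CPM (-1.50 ± 0.27, edgeR adjusted p = 0.000165). Its other arm miR-371a-3p was not called (-0.51 ± 0.32), and per 100 counts of the 5p arm there were 73.9, 71.0 and 55.1 counts of the 3p arm in lysate and 121, 140.2, 125 and 159 in P100. The 3p arm was thus the rarer one in all lysate libraries and the more abundant one in all P100 libraries. miR-373-3p was at 48067, 66472 and 61209.7 CPM and 46859.9, 34553, 46042 and 32857 CPM. Its groups did not overlap, but the difference did not pass (-0.55 ± 0.29, edgeR adjusted p = 0.143). For miR-372-3p, with the same seed, the value was 0.47 ± 0.37 (edgeR adjusted p = 0.320), while in a fit of only the 7 libraries it was called higher (0.64, edgeR adjusted p = 0.0301).

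A list of 14 miRNAs of the miR-17, miR-106 and miR-25 clusters, which drive the cell cycle, and of their relative miR-92b had 11 tested members, of which 2 were lower and none higher, beside 20.7% lower over all tested. The list leaves out some rarer arms of these hairpins, among which miR-25-5p (-2.31 ± 0.52, edgeR adjusted p = 0.00140) and miR-17-3p (-2.15 ± 0.78, edgeR adjusted p = 0.0319) were lower. miR-93-5p was at 36489.8, 38326 and 50759 CPM and 24774, 14280.3, 16774 and 26746 CPM (-1.02 ± 0.34, edgeR adjusted p = 0.0201). It had no call when lysate replicate 3, P100 replicate 2 or P100 replicate 3 was left out (edgeR adjusted p = 0.151, 0.0669 and 0.0537). The call was also lost with near-identical miRNAs summed (edgeR adjusted p = 0.0672), without entries of other RNA classes (0.0732) and with a minimum fold of 1.5 (0.0933). miR-92b-3p (-0.91 ± 0.34, edgeR adjusted p = 0.0374) lost its call in 16 of 17 alternatives, the replicate block among them (0.0556), and kept it without P100 replicate 1. No member of the list was called lower without lysate replicate 3, P100 replicate 2 or P100 replicate 3. miR-92a-3p, which made up the largest share of every library, was at 432193, 329899 and 258344 CPM in lysate and 278589, 232948, 287279 and 219180.2 CPM in P100, and did not pass (-0.42 ± 0.27, edgeR adjusted p = 0.229). miR-25-3p, of the same seed, had -0.37 without a call.

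Further falls with full separation of the groups included miR-205-5p, an epithelial miRNA, at 11026, 7000.2 and 9353 CPM and 3623, 3825, 3632 and 2304 CPM (-1.43 ± 0.28, edgeR adjusted p = 0.000360), and miR-324-3p, at 1068, 840.3 and 350.0 CPM and 117, 42.5, 129.7 and 100.2 CPM (-2.94 ± 0.70, edgeR adjusted p = 0.00227). miR-362-5p, from an intron of the chloride channel gene CLCN5 on chromosome X, fell from 106 counts to 1, a ratio of 0.0293 (exact 95% counting interval 0.000734 to 0.167, edgeR adjusted p = 0.000265), with a fitted value of -8.08 without P100 replicate 1, which held that count. miR-454-3p fell from 77 to 2 counts, a ratio of 0.0806 (0.00958 to 0.301, edgeR adjusted p = 0.00206). Its seed relatives miR-301a-3p and miR-301b-3p were not called (0.69 and 0.28 on the log2 scale), while miR-130b-3p was lower (-1.23 ± 0.38, edgeR adjusted p = 0.0138). miR-130b-3p had no call when lysate replicate 3 was left out (edgeR adjusted p = 0.189) or with near-identical miRNAs summed (0.0550). Nor had it one without entries of other RNA classes (edgeR adjusted p = 0.0550) or with a minimum fold of 1.5 (0.0513). miR-1275 was at 9992, 2404 and 970.3 CPM and 409, 298, 605 and 902 CPM, and its fall of -3.05 ± 0.77 (edgeR adjusted p = 0.00418) rested on lysate replicate 1, without which it was -1.53 (edgeR adjusted p = 0.104).

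The hypoxia miRNA miR-210-3p was at 5169, 3778 and 4072 CPM and 1461, 978, 2118 and 1803 CPM (-1.45 ± 0.53, edgeR adjusted p = 0.0347), and its call was lost in 11 of 17 alternatives, among them the fits without 1 library, with edgeR adjusted p from 0.0628 to 0.111, except that without P100 replicate 3. Of the miR-26, miR-29 and miR-148 list 2 of 7 were lower and none higher, near the 20.7% lower over all tested. miR-26a-5p had -1.06 ± 0.31 (edgeR adjusted p = 0.0108). It had no call without lysate replicate 3 (edgeR adjusted p = 0.129), without the filter on low counts (0.0532) or with a minimum fold of 1.5 (0.0649). miR-29c-3p had -1.83 ± 0.55 (edgeR adjusted p = 0.0115). It had no call without lysate replicate 2 (edgeR adjusted p = 0.102) or at equal depth, where the value was -0.82 (0.357). Beside 16.7% higher and 20.7% lower over all tested, the neural list had 1 higher (miR-9-3p) and 1 lower of 5 tested. The lower one was miR-132-3p (-1.21 ± 0.41, edgeR adjusted p = 0.0225). Its call was lost in 10 of 17 alternatives, among them the fits without lysate replicate 1 or 3 and P100 replicate 2 or 4 (edgeR adjusted p = 0.140, 0.133, 0.0669 and 0.0634).

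Of 23 miRNAs that earlier work found in vesicles, 17 were tested, 5 were higher (miR-451a, miR-1246, miR-486-5p, miR-146a-5p and miR-4516) and 2 lower (miR-205-5p and miR-210-3p), with a median of 0.47, beside 16.7% higher and 20.7% lower over all tested. Without P100 replicate 3 there were 3 higher, and 1 lower without lysate replicate 2 or 3 or P100 replicate 1, 2 or 4. The list took 11.0, 15.3 and 15.1% of lysate counts and 16.0, 15.3, 15.2 and 15.2% of P100 counts, which overlap. miR-21-5p, raised in many carcinomas, was at 10475, 23748 and 24958 CPM and 7829, 8925, 13878 and 14024 CPM, with lysate replicate 1 inside the P100 range, and did not pass (-0.83 ± 0.34, edgeR adjusted p = 0.0571), though it did without lysate replicate 1 (edgeR adjusted p = 0.0299).

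**Figure D5:**
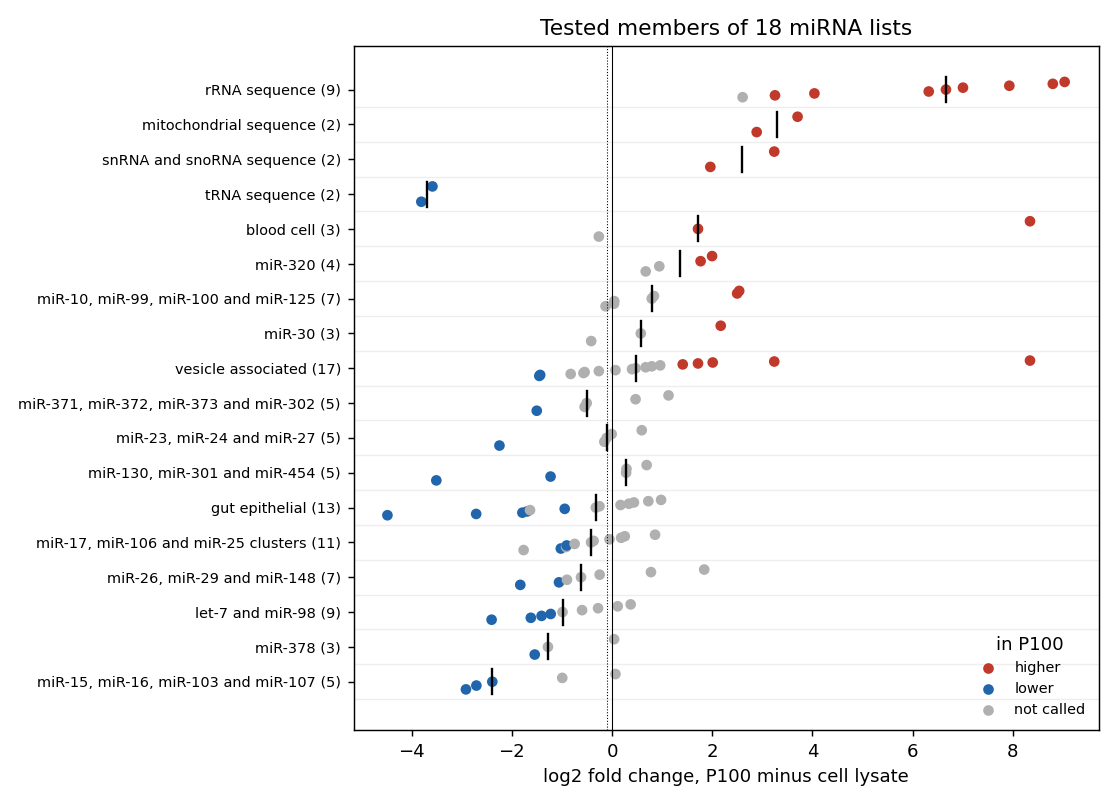
Log2 fold change, P100 minus cell lysate, of the tested members of 18 miRNA lists (number tested in brackets), one point per miRNA coloured by call, with a black bar at the list's median, a solid line at 0 and a dotted line at the median of all 227 tested miRNAs (-0.10); values of miRNAs absent from lysate are fitted ones. The rRNA, mitochondrial and small nuclear lists lie to the right and the tRNA list and the list of miR-15, miR-16, miR-103 and miR-107 to the left, while most other lists straddle 0.

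Above a mean level of 5000 CPM the smallest differences were those of miR-20a-5p (-0.05 ± 0.39 on the log2 scale), miR-16-5p, miR-22-3p, miR-192-5p and miR-191-5p. miR-22-3p was at 13266, 10741 and 10514 CPM and 13439, 9435, 9425 and 9216 CPM (-0.15 ± 0.30), and miR-191-5p at 26773, 28979.8 and 28123 CPM and 23255, 27966, 24859 and 19033 CPM (-0.23 ± 0.28). For these the groups overlapped. The 10 most abundant miRNAs, 7 of them shared, took 59.9% ± 2.52 (SD, n = 3) of lysate and 60.2% ± 2.29 (n = 4) of P100 counts (exact two-sided permutation test, p = 0.914, adjusted over 3 such tests 0.914). Thinned to 10017 counts, a library was expected to list 256 ± 10.5 miRNAs in lysate and 266 ± 6.02 in P100 (exact permutation p = 0.229, adjusted 0.686). The smallest p that 35 splits of 3 and 4 libraries allow is 0.0571, so no such test could pass at 0.05.

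By seed, 32 seeds were shared by 82 tested miRNAs. Members with 1 seed were called in both directions for a single seed, GCGGGGC, with miR-10396a-5p higher and miR-744-5p lower (-1.67 ± 0.46 on the log2 scale).

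Whether a difference from lysate was larger in P100 than in P40, the pellet of the lower speed, was tested directly as P100 against P40 in the same fit. Of all tested miRNAs 5 were higher (2.2%) and 6 lower (2.64%) in P100. The 3p arms of miR-10396 were at 5259 ± 1913 CPM in P100 and 433 ± 83.7 CPM in P40 for miR-10396a-3p (SD, n = 4 each; log2 difference 3.57 ± 0.52, edgeR adjusted p = 0.000107), and 7407 ± 1017 and 884 ± 503 CPM for miR-10396b-3p (3.09 ± 0.56, edgeR adjusted p = 0.00109). miR-10396a-5p, miR-3648 and miR-3960 were the others, with 1.54 ± 0.37 (edgeR adjusted p = 0.0149), 2.05 ± 0.55 (edgeR adjusted p = 0.0288) and 2.76 ± 0.79 (edgeR adjusted p = 0.0433). All 5 were thus further above lysate in P100 than in P40. Lower in P100 were miR-362-5p (-4.40 ± 1.00, edgeR adjusted p = 0.0113), miR-454-3p (-3.21 ± 0.87, edgeR adjusted p = 0.0288), miR-371a-5p (-0.93 ± 0.26, edgeR adjusted p = 0.0350), miR-205-5p (-1.05 ± 0.27, edgeR adjusted p = 0.0272) and miR-21-5p (-1.22 ± 0.32, edgeR adjusted p = 0.0288). miR-106a-5p, which was named after its values were seen, had -4.17 ± 0.74 (edgeR adjusted p = 0.000979). For miR-103a-3p the difference between pellets did not pass (-0.93 ± 0.32, edgeR adjusted p = 0.103), nor did it for miR-7704 (1.18 ± 0.45, edgeR adjusted p = 0.123) or miR-663a (2.11 ± 0.70, edgeR adjusted p = 0.0989).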

How the data were processed

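Each library's deposited file lists raw counts by mature human miRNA, made by the authors with cutadapt 1.16, FastQC, Bowtie2 and GRCh38, per the submitters' processing notes. Alignment settings, the treatment of multiply matching reads and the miRNA release are not given in the sources used here. Unlisted miRNAs were set to 0. S100 replicate 1 (48 counts, 28 miRNAs) was left out by a minimum of 100 listed miRNAs. In R 4.3.3, edgeR 4.0.16 kept 227 of 1043 miRNAs by filterByExpr (minimum count 10, minimum total 15), which hold 98.7 to 99.1% of counts, and fitted 1 robust quasi-likelihood model to 5 groups (18 libraries, TMM scaling, Benjamini-Hochberg adjustment over the 227). The script was tested on simulated data.

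Lists and named miRNAs were chosen with earlier results of these data known. Named were the 10 largest rises and falls with separate groups and at least 100 CPM, the 8 most abundant of each group, in each list the 4 most abundant and all called members, the 5 abundant ones with the smallest differences, those at 0 in 1 group, and hairpins with arms called in opposite directions (none). Of the miRNAs so named, 1 is not reported here. Some others were chosen after their values were seen, namely miR-365, miR-193b-3p, miR-28, miR-17-3p, miR-106a-5p, miR-200b-3p, miR-429, miR-744-5p, miR-10395-3p, miR-10401-3p and the near-identical pairs.

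Batch labels equal replicate numbers and pair the samples by label. Deviations of same-numbered libraries correlated at 0.180, 0.0672 and 0.0437. Sequences are RefSeq's (GRCh38.p14), and exons and introns are from GENCODE release 29 (GRCh38). Host transcripts there exclude small RNA and rRNA genes. Alternatives were library size alone, DESeq2 1.42.0, no filter, only the 7 libraries, the replicate block, equal depth, summed near-identical miRNAs, no entries of other RNA classes, a minimum fold of 1.5 and each library left out. Leaving out entries numbered 3000 or above was added after seeing the data.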

Additional observations from a re-analysis of the deposited data

Results flagged for a closer look

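In 7 of 101 named miRNAs checked within P100, 1 library lay apart from the other 3, which chance gives for about 1 in 20 groups. The level was 1803 CPM in P100 replicate 4 for miR-10a-5p (others 553 to 692), 2304 CPM in replicate 4 for miR-205-5p (others 3623 to 3825), 13439 CPM in replicate 1 for miR-22-3p (others 9216 to 9435) and 292 CPM in replicate 1 for miR-301a-3p (others 638 to 701). miR-1260b (86.5 CPM, replicate 3), miR-192-3p (58.4 CPM, replicate 1) and miR-362-5p (58.4 CPM, replicate 1) had counts in that library alone. A miRNA counted in 1 library alone meets this rule in any case, so the rate of 1 in 20 does not apply to these.

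For 10 named miRNAs the difference from lysate in P100 differed from that in P40, tested as P100 minus P40 on the log2 scale by edgeR. It was positive for miR-10396a-3p (3.57), miR-10396b-3p (3.09), miR-3960 (2.76), miR-3648 (2.05) and miR-10396a-5p (1.54). It was negative for miR-371a-5p (-0.93), miR-205-5p (-1.05), miR-21-5p (-1.22), miR-454-3p (-3.21) and miR-362-5p (-4.40).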

How the results depend on the processing

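The number of higher miRNAs (38) was 17 when entries numbered 3000 or above were left out, with 40 lower. The number of lower ones (47) was 29 in a fit of only the 7 libraries, 23 at equal depth, 27 with near-identical miRNAs summed, 29 without entries of other RNA classes and 29 with a minimum fold of 1.5. Without 1 library there were 33 to 40 higher and 32 to 42 lower, the fewest without lysate replicate 3 and lysate replicate 2. DESeq2 gave 52 and 48, and library size alone 42 and 42. With the replicate block there were 38 higher and 43 lower, 37 and 41 of them among the calls above; of the named miRNAs it ended the calls of miR-5100, miR-92b-3p and miR-98-5p. The higher share of calls was 44.7%, 59.1% with near-identical miRNAs summed, 55.6% without lysate replicate 2 and 29.8% without entries numbered 3000 or above. The median of all miRNAs moved by 0.12 with library size alone, 0.19 with DESeq2, and 0.24 and 0.23 with near-identical miRNAs summed and other RNA classes out. The difference in the share of the 10 most abundant miRNAs, 0.272 percentage points, was 3.13 without entries of other RNA classes. Of 58 named and called miRNAs, 34 kept call and direction in every setting in which they were tested, and none reversed. The cause of these changes was not tested, beyond the smaller number of miRNAs tested at equal depth (140) and in the 7 libraries alone (154). P100 depth limits miRNAs below about 111 to 299 CPM.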
